A study of Drosophila melanogaster with 4 samples.

Results

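The 10 genes described here encode enzymes of glycolysis in Drosophila melanogaster: Pgi, Pfk, Ald, Tpi, Gapdh1, Gapdh2, Pgk, Pglym78, Eno and PyK. They were taken by their symbols from tables of 14664 genes, and all 10 were found. Their transcripts were measured by RNA sequencing in testes of 2 genotypes, labelled bam- and Phf7-bam-, with 2 libraries each and 4 in all. Both genotypes are thus labelled as mutant for bam, a gene that germ cells need to leave their mitotic divisions, and they differ by the label in Phf7, which encodes a PHD finger protein of male germ cells. The testes came from flies aged at most 3 days, reared at the same temperature on standard food. The alleles, the number of flies per library and the origin of the Phf7 mutation were not given in the labels, and no testis with an intact bam gene was analysed here. The comparison asks which transcripts differ when Phf7 is lost in a bam mutant testis.

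Glycolysis splits glucose into pyruvate in the cytosol. The preparatory reactions spend ATP and end in triose phosphates, and the later reactions return ATP and NADH. Pyruvate then enters mitochondria for oxidation or is reduced to lactate. In the testis, somatic cyst cells enclose the germ cells, and both kinds of cell were present in the dissected tissue, together with the muscle sheath. In such bulk tissue, fewer cells of a type and less RNA per cell cannot be told apart.

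Summed FPKM lay between 650127 and 662056 per library, and the libraries differed in transcripts of other tissues. Values are FPKM, fragments scaled to transcript length and library size, so that levels can be compared between genes. The targeted gene itself fell: Phf7 measured 173.2 and 152.0 FPKM in bam replicates 1 and 2, against 18.8 and 22.9 FPKM in the double mutant (limma adjusted p = 0.00706, and 0.141 and 0.105 without Phf7 bam replicate 1 or 2), while bam transcript was listed in all 4 libraries at 26.5 to 32.6 FPKM, so its level does not check the bam label. The germline marker vas, an RNA helicase, stood at 172.5 to 188.0 FPKM. Of 5 germline markers 2, nanos and aub, had both Phf7 bam libraries above both bam libraries, as did 20.5% of all genes tested, and the others overlapped. nanos measured 136.0 and 129.2 FPKM in bam testes, against 171.2 and 204.7 FPKM in the double mutant (limma adjusted p = 0.610). chinmo, a regulator of cyst cells, stood at 43.1 and 39.3 against 32.0 and 38.6 FPKM. Of 5 tested somatic gonad markers, chinmo alone had both Phf7 bam libraries below both bam libraries, as did 14% of all genes tested. Of 9 genes of spermatocytes and spermatids 3 had a mean of at least 1 FPKM, with tomb the highest at 20.8 to 30.1 FPKM. Transcripts of the male accessory gland stood apart between libraries of one genotype: SP, the sex peptide, was listed at 0 in bam replicate 1, and was at 124.0 FPKM in bam replicate 2, at 287.1 in Phf7 bam replicate 1 and at 3.95 in Phf7 bam replicate 2. The 6 accessory gland markers summed to 6.59, 550.2, 1069 and 18.1 FPKM in that order, so the libraries rich in gland transcripts belong to different genotypes.

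Every glycolytic enzyme was well represented in bam mutant testes, and the levels spanned about one order of magnitude. The 10 enzymes summed to 907.4 and 974.3 FPKM per bam library, against 942.2 and 1108 FPKM per double mutant library, which is between 0.140% and 0.167% of the summed FPKM of all genes. The highest enzyme of a library exceeded the lowest by 10.5 to 11.5 times.

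In bam testes Gapdh2, Gapdh1 and PyK led the order, with means of 167.3, 159.3 and 158.5 FPKM, and their library values overlapped, so no order among these 3 can be given. Eno followed at 128.4, Ald at 107.3, Pgk at 63.6, Pgi at 58.7, Pglym78 at 46.9, Tpi at 35.1 and Pfk at 15.6 FPKM, and from PyK downward the library values of neighbours did not overlap. In Phf7 bam testes the order was Gapdh1, PyK, Gapdh2, Eno and Ald, with means of 193.6, 170.6, 152.4, 139.6 and 129.6 FPKM, and each of these overlapped its neighbour. Pgk, Pgi, Pglym78, Tpi and Pfk kept the lower places, at 65.2, 57.9, 54.9, 44.3 and 17.1 FPKM, and of the neighbours there only Pgi and Pglym78 overlapped. With 2 libraries a genotype, overlap is a description and the order was not tested. The deposited FPKM of Gapdh1, Pglym78 and Eno lay outside its own deposited interval in all 4 libraries, so the places of these genes are uncertain.

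**Figure D1:**
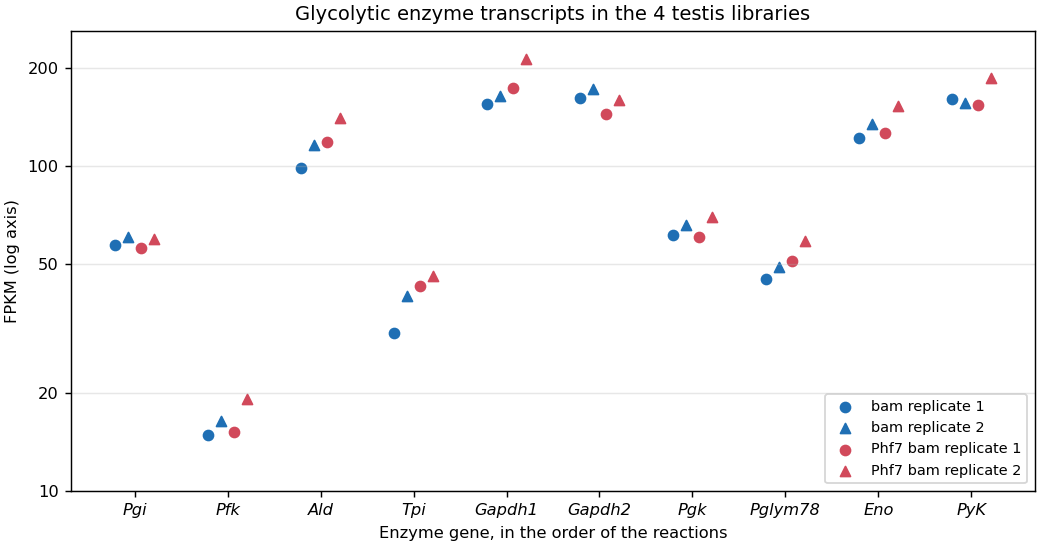
FPKM of each enzyme gene on a log axis, in the order of the reactions, with 1 point per library; blue marks bam, red marks Phf7 bam, circles replicate 1 and triangles replicate 2. Pfk lies lowest in every library, at 14.9 to 19.1 FPKM, and Phf7 bam replicate 2 holds the highest value of 8 of the 10 genes.

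No enzyme passed the test between the genotypes. limma, fitted to the 8965 genes with a mean of at least 1 FPKM, called 21 genes at an adjusted p under 0.05, 0.234% of those tested, 11 of them higher (0.123%) and 10 lower (0.112%) in Phf7 bam testes. Of the 10 enzymes 0 were called, 0 had an unadjusted p under 0.05 (550 of all genes tested, 6.13%), and 0 were called with robust moderation, which called 307 genes (3.42%). The limma adjusted p of the 10 lay between 0.905 and 0.989. Robust moderation took a gene's variance largely from the trend over genes, so its small p-values rest little on that gene's own 4 libraries. The median log2 change of the enzymes was 0.12, beside 0.03 over all genes tested, with 8 of 10 changes above 0, beside 57.4% of all genes tested. This median rested on Phf7 bam replicate 2: it was -0.03 without that library and 0.27 without Phf7 bam replicate 1, where the median over all genes tested was -0.06 and 0.11.

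The preparatory enzymes ran from Pgi to Tpi. Pgi, the isomerase that turns glucose phosphate into fructose phosphate (dm3, 2R, 4798407 to 4801631), stood at 57.0 and 60.4 FPKM in bam testes, against 56.1 and 59.7 FPKM in the double mutant. The genotypes overlapped, and the log2 change was -0.02 (95% interval -0.30 to 0.26). Pfk, phosphofructokinase (2R, 5997245 to 6004696), which catalyses the committed step of the pathway, stood at 14.9 and 16.3 FPKM in bam testes, against 15.1 and 19.1 FPKM in the double mutant, again with overlap (0.12, interval -0.27 to 0.51).

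Ald, the aldolase that cleaves fructose bisphosphate (current symbol Ald1; 3R, 22080404 to 22087313), stood at 98.8 and 115.9 FPKM in bam testes, against 118.3 and 140.8 FPKM in the double mutant. Both double mutant values lay above both bam values, with a log2 change of 0.27 (interval -0.13 to 0.67). Tpi, which interconverts the triose phosphates (3R, 25958698 to 25960321), had the largest change of the 10: it measured 30.5 and 39.6 FPKM in bam testes, against 42.6 and 45.9 FPKM in the double mutant, a log2 change of 0.34 (SE 0.159, interval -0.08 to 0.76, limma adjusted p = 0.905). The groups did not overlap, but bam replicate 1 stood apart, and bam replicate 2 lay nearer to both double mutant libraries than to it. Without bam replicate 1 the log2 change of Tpi was 0.16.

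The later reactions begin with glyceraldehyde phosphate dehydrogenase, the NADH-forming step, which is encoded by the genes Gapdh1 (2R, 3679403 to 3680885) and Gapdh2 (X, 15762178 to 15763694). Gapdh1 stood at 154.9 and 163.7 FPKM in bam testes, against 173.7 and 213.5 FPKM in the double mutant. Gapdh2 stood at 162.3 and 172.3 FPKM in bam testes, against 144.6 and 160.2 FPKM in the double mutant. The double mutant libraries thus lay above both bam libraries for Gapdh1 and below both for Gapdh2, with log2 changes of 0.27 (SE 0.145, interval -0.11 to 0.65) and -0.14 (SE 0.118, interval -0.44 to 0.17).

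By the deposited FPKM within a library, Gapdh2 and Gapdh1 were near parity in bam testes and Gapdh1 led in Phf7 bam testes. The ratio of Gapdh2 to Gapdh1 was 1.05 in each bam library and 0.832 and 0.751 in the Phf7 bam libraries. On the log2 scale the mean ratio was 0.07 ± 0.0045 (SD, n = 2) and -0.34 ± 0.105 (SD, n = 2), a difference of -0.41 that exceeds the spread within either genotype. The exact two-sided permutation test over libraries gave p = 0.333, the smallest p that 2 libraries against 2 allow, so this design cannot pass a threshold of 0.05. A ratio within a library does not depend on the scaling between libraries, and it does not show which of the genes differs. The sum of both genes was 317.2 and 336.0 FPKM in bam testes, against 318.3 and 373.7 FPKM in the double mutant, with overlap. The genes are close paralogues, and how reads that fit both were assigned is not given in the sources used here, so the split between them is uncertain. The deposited FPKM of Gapdh1 also lay outside its own deposited interval in all 4 libraries. With the interval midpoints in place of the FPKM the ratio was 1.21 in each bam library and 0.962 and 0.874 in the Phf7 bam libraries. The midpoints thus kept the lower ratio in Phf7 bam testes, but not the parity in bam testes.

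**Figure D2:**
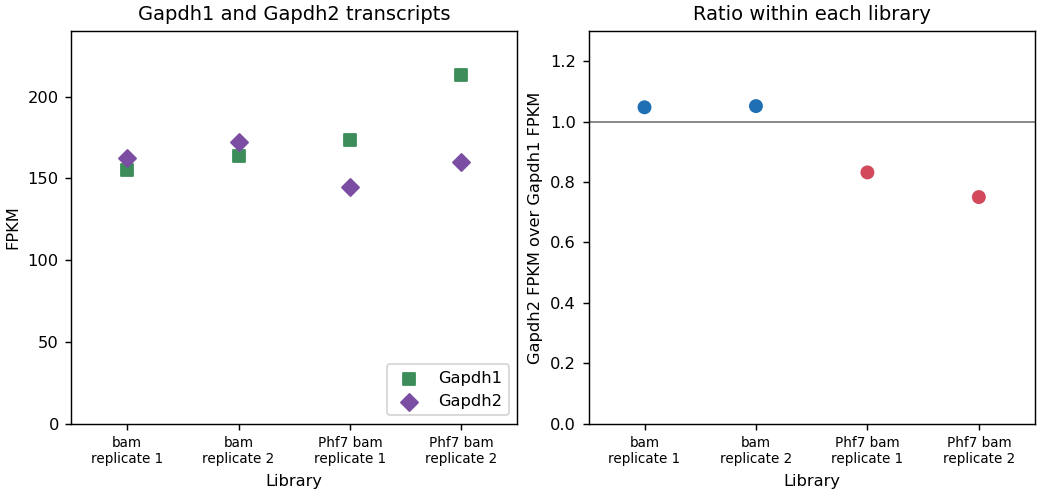
Left, FPKM of Gapdh1 (green squares) and Gapdh2 (purple diamonds) in each of the 4 libraries; right, the ratio of Gapdh2 to Gapdh1 in each library, with blue points for bam, red points for Phf7 bam and a line at 1. The bam libraries lie at 1.05 and the Phf7 bam libraries at 0.832 and 0.751.

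Pgk, phosphoglycerate kinase, the first step that returns ATP (2L, 2746880 to 2748522), stood at 61.5 and 65.7 FPKM in bam testes, against 60.6 and 69.7 FPKM in the double mutant. Its groups overlapped, with a log2 change of 0.03 (interval -0.29 to 0.35) that turned to -0.02 with quantile normalization. Pglym78, a phosphoglycerate mutase (3R, 24973970 to 24975623), stood at 44.8 and 49.0 FPKM in bam testes, against 51.0 and 58.9 FPKM in the double mutant. Its groups did not overlap, and the log2 change was 0.22 (interval -0.11 to 0.55).

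Eno, enolase (2L, 1724974 to 1729629), stood at 122.2 and 134.6 FPKM in bam testes, against 126.1 and 153.1 FPKM in the double mutant, with overlap (0.12, interval -0.26 to 0.50). Its share of the summed FPKM of the 10 enzymes lay between 13.4% and 13.8% in all 4 libraries, a narrower range than those of Gapdh1, Gapdh2, PyK and Ald. PyK, pyruvate kinase, the last step of the pathway (3R, 18193234 to 18198464), stood at 160.4 and 156.7 FPKM in bam testes, against 154.1 and 187.2 FPKM in the double mutant. The groups overlapped, since the double mutant libraries held both the lowest and the highest of its values (0.10, interval -0.27 to 0.46).

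The intervals set what these libraries leave possible. Over the 10 enzymes, the 95% limma intervals of the ratio of Phf7 bam to bam reached from 0.735 for Gapdh2 to 1.69 for Tpi, on the scale of FPKM + 1. A p that misses the threshold does not show equal levels. Both double mutant libraries lay above both bam libraries for Ald, Tpi, Gapdh1 and Pglym78, 4 of 10 enzymes, where 20.5% of all genes tested did so, and below them for Gapdh2, 1 of 10, where 14% of all genes tested did so. Phf7 bam replicate 2 held the highest value of 8 of the 10 enzymes and of 57.4% of all genes tested.

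**Figure D3:**
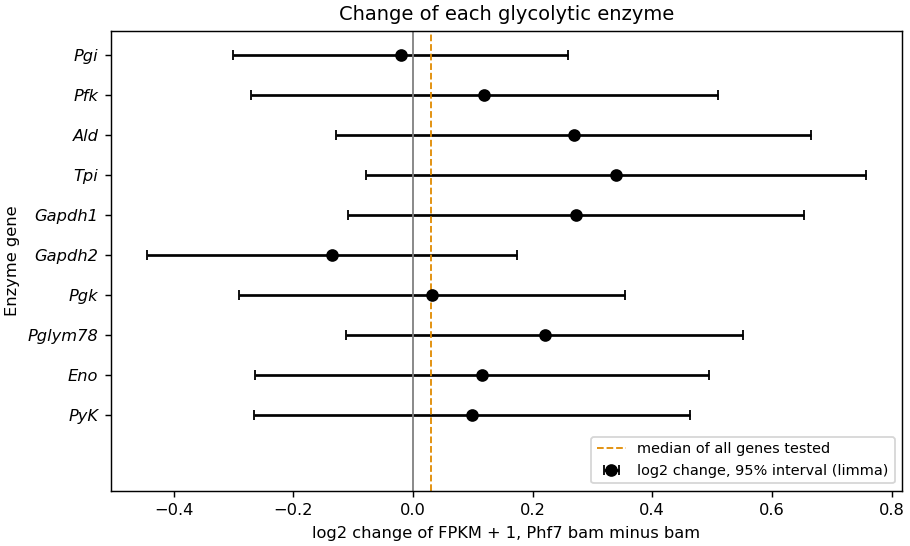
Log2 change of FPKM + 1 for each enzyme, Phf7 bam minus bam, as points with 95% limma intervals (2 libraries per genotype); the dashed line marks the median of all genes tested, 0.03. All 10 intervals include 0, with the points between -0.14 for Gapdh2 and 0.34 for Tpi.

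As shares of the summed enzyme FPKM, which a common scaling of a library leaves alone, Gapdh2 stood at 17.8% ± 0.144 in bam and 14.9% ± 0.624 in Phf7 bam testes (SD, n = 2 each), and Gapdh1 at 16.9% ± 0.190 and 18.8% ± 0.587. Ald made up 11.4% ± 0.716 and 12.6% ± 0.108, and Tpi 3.71% ± 0.50 and 4.34% ± 0.270. Pfk was the smallest share, at 1.61% to 1.73% in the 4 libraries. Shares of one sum move against each other, so these values are not separate results.

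Transcripts of muscle, whose sheath is part of the dissected tissue, and of other tissues also differed between the libraries. The 12 muscle markers, all detected, were each lowest in bam replicate 1, and summed to 585.0 and 810.5 FPKM in bam and to 718.9 and 857.7 FPKM in Phf7 bam testes; Act57B, a muscle actin, led with 181.4 to 244.3 FPKM. Of the 10 enzymes, 6 were also lowest in bam replicate 1, as were 26% of all genes tested. The 7 fat body markers summed to 27.0 and 36.8 FPKM in bam and to 57.8 and 68.6 FPKM in Phf7 bam testes. Tsf1, a transferrin, stood at 7.95 and 8.68 against 18.0 and 19.1 FPKM (limma adjusted p = 0.0852, and 3.60e-09 with robust moderation). For Tsf1, Lsp2 and Yp3 both Phf7 bam libraries lay above both bam libraries, as for 20.5% of all genes tested, while Fbp1 and apolpp overlapped. Yp1 and Yp2 stayed under 1 FPKM and went the other way, with both Phf7 bam libraries below both bam libraries. Yp1 stood at 0.27 and 0.16 against 0.11 and 0.07 FPKM, and Yp2 at 0.71 and 0.58 against 0.49 and 0.47 FPKM. The 6 haemocyte markers, He among them listed at 0 throughout, summed to 57.7 and 58.1 FPKM in bam and to 61.1 and 70.8 FPKM in Phf7 bam testes, most of it from crq, a scavenger receptor, at 40.4 to 50.6 FPKM with overlap. The other 4 detected haemocyte markers, Hml, Pxn, NimC1 and eater, each had both Phf7 bam libraries above both bam libraries, as did 20.5% of all genes tested. Hml, or hemolectin, stood at 3.14 and 1.89 FPKM in bam testes, against 5.23 and 4.78 FPKM in the double mutant (limma adjusted p = 0.643, and 0.00433 with robust moderation). Pxn, or peroxidasin, stood at 8.94 and 11.2 against 13.1 and 12.4 FPKM. The part of muscle, fat body and haemocytes in the enzyme values was not tested.

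Between the libraries poor in gland transcripts, Phf7 bam replicate 2 and bam replicate 1, 9 of the 10 enzymes had a positive log2 difference, as did 72% of all genes tested. Between the libraries rich in them, Phf7 bam replicate 1 and bam replicate 2, 4 of the 10 did, as did 35.8% of all genes tested. Tpi differed by 0.58 in the poor pair and 0.10 in the rich pair, Ald by 0.51 and 0.03, Gapdh1 by 0.46 and 0.08, Pglym78 by 0.38 and 0.06, and Gapdh2 by -0.02 and -0.25. These 5 kept their sign in both pairs, while Pgi, Pfk, Pgk, Eno and PyK did not. The groups of these 5 did not overlap, which fixes the sign in any such pair, so the pairs add no check of it. Each pair holds 1 library per genotype, so neither was tested.

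**Figure D4:**
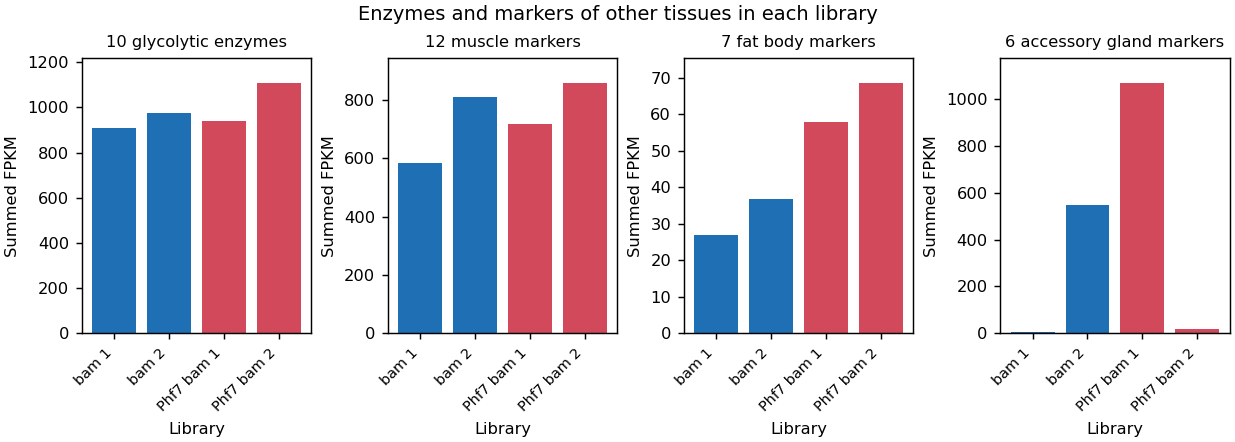
Summed FPKM of the 10 glycolytic enzymes and of the marker lists for muscle, fat body and male accessory gland, with 1 bar per library (blue bam, red Phf7 bam) and axes that start at 0. The enzymes range from 907.4 to 1108 FPKM, muscle from 585.0 to 857.7 FPKM, and the accessory gland from 6.59 to 1069 FPKM.

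The listed paralogues of these enzymes had values at or near 0. Of 10 listed paralogues, 6 were listed at 0 in every library, among them the aldolase-like Ald2 and the mutase paralogue Pglym87. The other 4 had means under 1 FPKM and did not enter the test. CG7059, related to phosphoglycerate mutase, was at 0.51, 0.57, 1.41 and 0.39 FPKM in the order of bam replicates 1 and 2 and Phf7 bam replicates 1 and 2. CG7069, related to pyruvate kinase, stood at 0.18 and 0.25 FPKM in bam testes, against 0.47 and 0.46 FPKM in the double mutant. Ratios of the enzymes to these paralogues are not given, since the paralogues' values are near 0.

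Around glycolysis, 0 members of any list were called by limma, which called 0.234% of all genes tested. The counts at an unadjusted p under 0.05, here and for the lists that follow, stand beside 6.13% of all genes tested. In sugar uptake and phosphorylation, 9 of 15 genes were tested, 1 had an unadjusted p under 0.05 and the median log2 change was 0.08. Hex-A, the hexokinase that feeds the pathway, stood at 72.6 and 85.6 FPKM in bam testes, against 82.1 and 92.3 FPKM in the double mutant, whereas the testis hexokinase genes Hex-t1 and Hex-t2 stayed at or under 0.035 FPKM. Hex-C, another hexokinase, was at 3.07 and 3.37 against 4.68 and 4.35 FPKM (log2 change 0.39, limma adjusted p = 0.824). Treh, trehalase, which frees glucose from the sugar of the haemolymph, was at 23.4 and 24.9 against 19.66 and 19.68 FPKM (-0.28, limma adjusted p = 0.780).

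For the fates of pyruvate and triose phosphate, 13 of 13 genes were tested, 0 had an unadjusted p under 0.05 and the median log2 change was 0.06. Ldh, lactate dehydrogenase (ImpL3 in the tables), stood at 33.3 and 23.6 FPKM in bam testes, against 29.2 and 48.7 FPKM in the double mutant. The spread within each genotype was wide and the groups overlapped (0.42, interval -0.37 to 1.20). Pdhb, a subunit of pyruvate dehydrogenase, was at 91.0 and 92.5 against 90.2 and 107.0 FPKM. Pdp, the phosphatase that activates that complex, was at 27.2 and 26.2 against 20.7 and 25.6 FPKM (-0.21, limma adjusted p = 0.906).

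Of the genes of gluconeogenesis, 3 of 5 were tested and 1 had an unadjusted p under 0.05. Pepck1, which makes phosphoenolpyruvate in gluconeogenesis, stood at 9.39 and 11.8 FPKM in bam testes, against 27.5 and 25.8 FPKM in the double mutant. The log2 change was 1.26 (SE 0.141, limma adjusted p = 0.121). It was called with robust moderation (limma adjusted p = 1.42e-13), where the variance came largely from the trend over genes. Its adjusted p ranged from 1.42e-13 to 0.453 over all settings. fbp, the phosphatase that works against Pfk, was at 4.09 and 4.37 against 3.03 and 3.44 FPKM, a log2 change of -0.31 (limma adjusted p = 0.906).

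In the pentose phosphate pathway, 7 of 7 genes were tested and 1 had an unadjusted p under 0.05, with a median log2 change of 0.08. The transketolase gene CG8036 led the list at 161.5 and 163.7 FPKM in bam and 161.0 and 181.2 FPKM in Phf7 bam testes, a level like that of PyK. Taldo, transaldolase, was at 96.1 and 91.4 against 111.0 and 127.5 FPKM (0.34, limma adjusted p = 0.790), and Pgd, a dehydrogenase of the oxidative branch, at 23.6 and 25.2 against 21.9 and 22.8 FPKM (-0.12, limma adjusted p = 0.923).

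Of 6 glycogen genes 0 had an unadjusted p under 0.05, and the median log2 change was 0.04. GlyP, glycogen phosphorylase, was at 83.4 and 87.1 against 90.2 and 100.6 FPKM. AGBE, the branching enzyme, had a log2 change of 0.21 and UGP, which makes the sugar donor of glycogen synthesis, of -0.17. Of 16 genes of the citric acid cycle 0 had an unadjusted p under 0.05, the median was 0.06, and the changes lay between -0.14 for Idh3g, a subunit of isocitrate dehydrogenase, and 0.14 for Mdh2, malate dehydrogenase. SdhB, a succinate dehydrogenase subunit, had the highest mean of that list, at 125.9 and 128.3 against 132.3 and 147.4 FPKM, near the level of Eno.

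Among 10 regulators of sugar and growth metabolism, 9 were tested, 0 had an unadjusted p under 0.05 and the median log2 change was -0.03. Myc, a growth regulator, stood at 108.0 and 95.9 FPKM in bam testes, against 104.8 and 122.4 FPKM in the double mutant. ERR, the nuclear receptor that drives glycolytic genes in the fly larva, was at 12.2 and 10.3 against 10.2 and 10.8 FPKM (-0.09, limma adjusted p = 0.975). bigmax, a partner of the sugar sensor Mondo, was listed at 0 in bam replicate 1 and was at 20.3, 18.2 and 24.8 FPKM in the other 3 libraries, so its fitted change rests on that single listed 0 (limma adjusted p = 0.906, and 0.00235 without bam replicate 2).

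**Figure D5:**
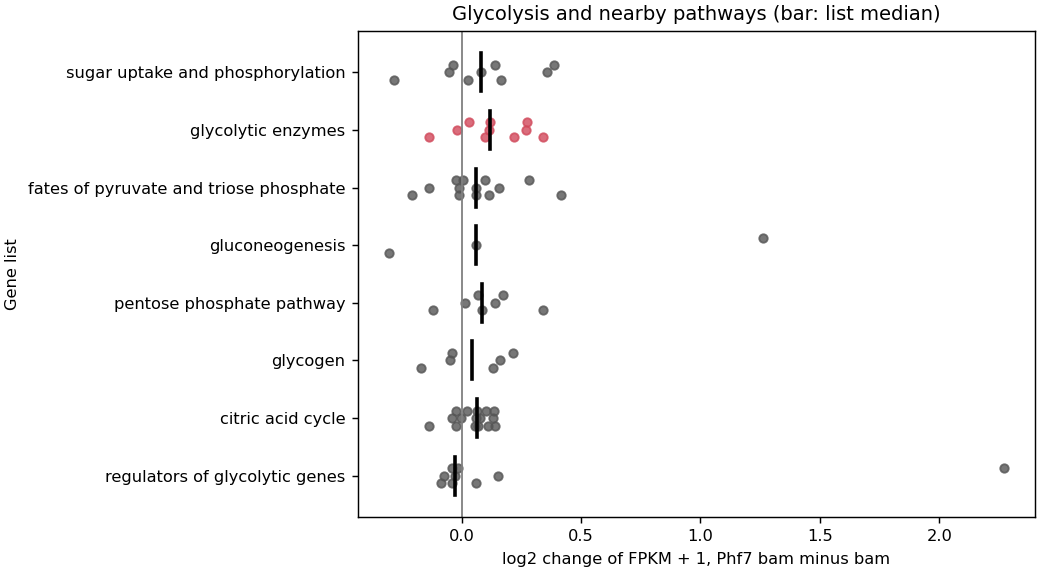
Log2 change of FPKM + 1, Phf7 bam minus bam, of each tested gene in glycolysis (red) and in the lists around it (grey), with a bar at each list's median. The glycolytic enzymes lie between -0.14 and 0.34; the points far to the right are Pepck1 at 1.26 and bigmax at 2.27, the latter with a library listed at 0.

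The loci of 4 enzymes overlap another gene of the tables. Gapdh1 shares 129 bp with PolZ1 (5.98 to 7.67 FPKM), Pgk 65 bp with Cwc25 (18.0 to 24.2 FPKM) and Pglym78 6 bp with eIF2D (14.5 to 17.2 FPKM). Eno encloses all 841 bp of Rrp40, an exosome subunit, which was listed at 0 in all 4 libraries. All 4 partners lie on the opposite strand, and whether strand was used in quantification is not given in the sources used here. Reads of the stretches shared with PolZ1, Cwc25 and eIF2D may thus have been credited to either gene. With Rrp40 listed at 0, any credited reads of its stretch lie with Eno. Of the 10 enzymes, Gapdh1, Pglym78 and Eno had a deposited FPKM outside its own interval in every library, and the other 7 in none.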

How the data were processed

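RNA selected with oligo-dT was sequenced from directional libraries of bam- and Phf7-bam- testes. Build dm3 and the tools TopHat2, Cufflinks and Cuffdiff come from the submitters' processing notes, and the settings, gene annotation and strand use are not known here. The authors deposited 1 table of FPKM per library, per the file headers, with interval bounds in FPKM. The FPKM lay outside these bounds for 13.1% to 16.9% of genes. Absolute depth is unknown; the spacing of low values gave depths of 1.23, 1.15 and 1.41 for bam replicate 2 and Phf7 bam replicates 1 and 2, relative to bam replicate 1.

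Genes averaging 1 FPKM or more were fitted as log2(FPKM + 1) with limma 3.58.1 (R 4.3.3), by genotype, with trend, two-sided, Benjamini-Hochberg adjusted over 8965 genes. The fit had 2 residual and 2.64 prior degrees of freedom. With robust moderation the prior degrees of freedom were listed as infinite, so p-values of that fit should not be taken at face value. The fit was tested on simulated data with planted changes much larger than those of the enzymes, so that test does not cover changes of their size. Tables and plots used Python 3.11.15. The series text calls the libraries biological replicates without naming crosses or batches. The p-values thus measure the spread between these samples, moderated with that of the other genes tested.

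All 10 enzymes and the other 132 listed genes had values. Named are the enzymes, paralogues with a mean of at least 1 FPKM (none), the highest, most increased and most decreased tested gene of each list, and the highest of each marker list. Hex-t1, Hex-t2, Ald2, Pglym87, CG7059, CG7069, nanos, aub, Lsp2, Yp1, Yp2, Yp3, Fbp1, apolpp, He, Hml, Pxn, NimC1, eater and overlapping genes were named after their values were seen. Members and lists were chosen with earlier results of these data known. Coordinates are those of the tables in dm3, counted from 1; strand came from a later annotation by identifier. Alternatives were other pseudocounts (0.1 and 0.5), filters, scalings and moderation, blocks, left-out libraries and, added after seeing the data, a crossed block and interval midpoints. The labels do not say that a replicate number marks a shared animal, batch or day, so numbers were not treated as pairs. Same-numbered libraries did not deviate together (r = -0.37 across genes). With 2 libraries a genotype the crossed numbers then have r = 0.37, and the main fit held no block for either pairing.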

Additional observations from a re-analysis of the deposited data

How the results depend on the processing

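No glycolytic enzyme was called under any setting tried; the lowest limma adjusted p of an enzyme was 0.308, for Gapdh1 and PyK alike, without Phf7 bam replicate 1. Over all genes, limma called 11 higher and 10 lower; the counts were 0 and 0 with no filter (1051 at an unadjusted p under 0.05), 20 and 17 with a mean of at least 5 FPKM, 217 and 90 with robust moderation, 34 and 18 with interval midpoints, and 7 higher with equal medians and with quantile normalization (11 lower in each). With 1 library left out they ran from 0 to 45 higher and from 0 to 56 lower, with 0 without Phf7 bam replicate 1 or 2 (1432 and 979 at an unadjusted p under 0.05), 38 and 38 without bam replicate 1 and 45 and 56 without bam replicate 2, where the lone library of a genotype is assumed to vary like the other genotype. The replicate block gave 8 higher and 10 lower, and called no enzyme. The crossed pairing gave 98 higher and 35 lower, and no enzyme. The cause of these differences was not tested. The median log2 change of the enzymes ran from -0.0317 to 0.266 with a library left out and was 0.07 with quantile normalization.

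Changes near 0 turned sign when a library was left out: Pgi ran from -0.0649 to 0.0234, Pfk from -0.0396 to 0.278, Pgk from -0.0678 to 0.131, Eno from -0.0237 to 0.254, PyK from -0.0405 to 0.238, Pdhb from -0.0241 to 0.219, CG8036 from -0.0146 to 0.155, ERR from -0.1995 to 0.0243, vas from -0.0648 to 0.058, Act57B from -0.106 to 0.321 and crq from -0.115 to 0.202. The log2 change of SP, 1.76 over all libraries, also turned sign and ran from -1.73 to 5.24. With quantile normalization Pgk was at -0.0249 and CG8036 at -0.0178. Ald, Tpi, Gapdh1, Pglym78 and Gapdh2 kept their sign in every setting tried. Their groups did not overlap, so leaving out a library could not turn the sign, and this is no separate support. The size did move: with a library left out Ald ran from 0.14 to 0.39, Tpi from 0.16 to 0.52, Gapdh1 from 0.12 to 0.42, Pglym78 from 0.12 to 0.32 and Gapdh2 from -0.21 to -0.06. The log2 difference in the ratio of Gapdh2 to Gapdh1 ran from -0.48 to -0.34 with a library left out and was -0.40 with interval midpoints. The call of Phf7 was lost with no filter (limma adjusted p = 0.192) and without either Phf7 bam library (0.141 and 0.105).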
